A study of Mus musculus with 2 samples.

Results

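Mature migratory dendritic cells were examined in 2 single-cell RNA libraries from tumours of LLC, a Lewis lung carcinoma line of the mouse. The KO library was made from tumours of mice without Dusp2 (Dusp2−/−) and the WT library from tumours of wild-type mice. The product of Dusp2 is a phosphatase of the cell nucleus that switches off MAP kinases. The labels call the cells tumour-infiltrating lymphocytes, give the molecule as polyA RNA for KO and total RNA for WT, and give 1 library per genotype. The sources used here do not give the deleted part of Dusp2, the strain, the age of the mice or the number of animals in a library. The LLC cells carry the genotype of the line in both groups, and the mice are the host. With 1 library per genotype no difference between genotypes could be tested. Every interval below is a 95% interval of counting error only, and no gene is said to have changed.

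Dendritic cells take up antigen, mature, and travel to lymph nodes to present peptides to T cells. On maturation they switch on Ccr7, the chemokine receptor that directs them along Ccl19 and Ccl21, and Fscn1, which bundles actin filaments. They also switch on co-stimulatory ligands and a set of regulatory molecules, and in tumours such cells are often described as mature regulatory dendritic cells.

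Members were selected on their own UMI counts. A barcode needed at least 200 genes with a UMI, no more than 20% of UMIs from mitochondrial genes, at least 1 UMI of Fscn1, at least 2 of Ccr7 and at least 5 of H2-Ab1 and H2-Aa together. It could hold no more than 2 UMIs of the complement genes C1qa, C1qb and C1qc, and 0 of the T-cell genes Cd3d and Cd3e, of the B-cell genes Cd79a and Ms4a1, and of the tumour genes Hmga2 and Rhox5. This left 106 of 12636 kept barcodes in the KO library and 94 of 9765 in the WT library, 200 of 22401 in all. The cells were chosen by the levels of these genes, so those levels are descriptions. Members held a median of 7095 UMIs per cell (794 to 24427) in KO and 8769 (2007 to 26288) in WT, and 740624 and 868703 UMIs in sum. In KO 15 members held under 2000 UMIs, against 0 in WT.

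Per kept barcode the members made up 0.839% in KO (Clopper-Pearson interval 0.687 to 1.01%) and 0.963% in WT (0.779 to 1.18%). The log2 ratio of the shares was -0.20 (-0.60 to 0.20), so no difference was detectable at this depth. The direction depended on the denominator. Among the barcodes of the 3 dendritic gates defined below, members were 62.0% in KO (54.3 to 69.3%) and 42.7% in WT (36.1 to 49.6%). Among kept barcodes without a UMI of Cd79a or Ms4a1 they were 1.58% in KO (1.29 to 1.90%) and 0.986% in WT (0.798 to 1.21%). The KO library held 6729 such barcodes among its 12636, and the WT library 9533 among its 9765.

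The limits of the gate cut the cells at different places in the libraries. At the MHC class II limit, 32 KO and 31 WT barcodes lay just outside. Their summed levels of Cacnb3 were 902 CPM in KO and 1081 CPM in WT, and those of Socs2 were 535 and 431 CPM, against 524 and 618 CPM of Cacnb3 and 404 and 420.2 CPM of Socs2 in members. CPM are UMIs of a gene per 1000000 UMIs of the summed cells. At the Fscn1 limit, 108 KO and 104 WT barcodes had Ccr7 but no Fscn1 UMI, and their Cacnb3 levels were 21.6 CPM in KO and 42.5 CPM in WT. At the B-cell limit, 68 KO barcodes and 0 WT barcodes were left out. The 4 KO cells with exactly 2 UMIs of Ccr7 held 2442 CPM of Ccl5, and the 9 KO barcodes with 1 UMI held 407 CPM.

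The label was checked against Socs2, a feedback inhibitor of cytokine signalling that the rule did not use. Its level was 404 CPM in KO members (359 to 452) and 420.2 CPM in WT members (378 to 466). The cells most like the members were taken from a pair of comparison gates. A type 1 gate, with at least 2 UMIs of Xcr1 and Clec9a together and no Ccr7, held 31 KO and 25 WT cells, and a type 2 gate, with at least 2 UMIs of Cd209a and none of Xcr1, Clec9a or Ccr7, held 34 KO and 101 WT cells. Socs2 stood at 0 CPM in KO and 5.19 CPM in WT cells of the type 1 gate, and at 17.4 CPM in KO and 8.25 CPM in WT cells of the type 2 gate. As sums, the members therefore carried the label's marker in both libraries, and the other dendritic cells carried little of it. The members were not alike. The 11 KO members with exactly 1 UMI of Fscn1 held 83.5 CPM of Socs2 and 66.8 CPM of Cacnb3. In WT, 2 members had exactly 1 UMI of Fscn1, and they held 0 CPM of both genes. Whether each member is a mature dendritic cell was not tested.

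Among genes named by the size of their difference from the type 1 gate were Cacnb3, a calcium channel subunit, Mreg, which acts in organelle transport, and Il4i1, an enzyme that breaks down aromatic amino acids. Cacnb3 was at 524 CPM in KO and 618 CPM in WT members, and at 0 CPM in the type 1 gate of both libraries. Mreg was at 439 CPM in KO and 462 CPM in WT members, against 7.67 and 2.59 CPM in the type 1 gate. Il4i1 was at 581 CPM in KO and 525 CPM in WT members, against 2.56 and 0 CPM. Of 43 measured genes of a list of the mature dendritic programme, 40 were at least 2-fold above the type 1 gate in both libraries and 0 were 2-fold below. Over all candidates, 20.6% of genes in KO and 18.8% in WT were at least 2-fold above the type 1 gate, and 15.9% and 17.2% were as far below. Against the type 2 gate, 37 of 45 programme genes were 2-fold higher in both libraries, against 19.3% of all candidates in KO and 14% in WT, while 12.7% and 20% were 2-fold lower. The list was chosen with earlier results of these data known. Members also needed Ccr7 UMIs and both gates allowed none, so these counts are descriptions and no test of what the members are.

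The members had little of some genes that mark resting dendritic cells. Wdfy4 and Mgl2 were named for the size of their difference from a gate, and Xcr1 was used to define the type 1 gate. Wdfy4, needed for cross-presentation by type 1 cells, was at 16.2 CPM in KO and 4.60 CPM in WT members, against 603 and 749 CPM in the type 1 gate. Mgl2, a lectin of type 2 cells, was at 13.5 CPM in KO and 20.7 CPM in WT members, against 582 and 696 CPM in the type 2 gate. Xcr1 was at 2.70 CPM in KO and 11.5 CPM in WT members. Cst3, the protease inhibitor that is abundant in type 1 cells, and Irf8, their lineage factor, were present at high levels. Cst3 was at 11236 CPM in KO and 20241 CPM in WT members, against 19485 and 27545 CPM in the type 1 gate and 3916 and 4550 CPM in the type 2 gate. These values and those of the genes below are set out in the heat map of the 5 gates.

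The targeted gene was read first in the genotype comparison. Dusp2 had 0 UMIs in the 106 KO members, and 179 UMIs in 45 of 94 WT members (206 CPM, interval 177 to 239). Against a floor of 3 UMIs in KO, this was at least 50.9-fold lower in KO. In the other gates Dusp2 was at 0 CPM in KO and 85.6 CPM in WT cells of the type 1 gate, at 0 and 136 CPM in the type 2 gate, and at 1.19 and 54.5 CPM in a C1q macrophage gate. The labels and the counts of the targeted gene were the same way round in each gate.

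Candidate genes had a mean of 30 CPM or more and 30 or more UMIs in KO or in WT. Of 3890 such genes, 138 (3.55%) were at least 2-fold higher in KO members and 125 (3.21%) at least 2-fold lower, 6.76% in either direction. The interval of the log2 ratio lay above 0 for 14.2% of the candidates and below 0 for 16.6%, and their median log2 ratio was -0.06. Below, a list gene is counted as higher or lower in KO when its interval lies above or below 0, and these 2 percentages are the background for such counts.

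Among secreted signals, Ccl22, Ccl17 and Il12b had lower summed levels in KO members. Ccl22 and Ccl17 encode the ligands of Ccr4, which draw regulatory and type 2 helper T cells, and Il12b encodes the p40 chain shared by interleukins 12 and 23. Both chemokine genes lie on the plus strand of chromosome 8 in GRCm38, Ccl22 at chr8:94745590-94751699 and Ccl17 at chr8:94810453-94812036, with 58753 bases between them, and Il12b lies at chr11:44400063-44414033. The sequences before their starts are shown because the summed levels of the 3 genes were lower in the same library. They are RefSeq's GRCm38.p6 sequences on the plus strand, the 250 bases before the start, cut for Ccl22 to the 156 bases that precede the start in both RefSeq and the GENCODE annotation. Capitals mark matches, on either strand, to an NF-kappaB type motif, GGG and CC with any 5 bases between them.

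Ccl22, chr8:94745434-94745589: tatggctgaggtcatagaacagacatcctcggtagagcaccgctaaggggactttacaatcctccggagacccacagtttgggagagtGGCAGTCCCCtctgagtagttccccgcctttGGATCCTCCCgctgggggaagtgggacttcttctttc
Ccl17, chr8:94810203-94810452: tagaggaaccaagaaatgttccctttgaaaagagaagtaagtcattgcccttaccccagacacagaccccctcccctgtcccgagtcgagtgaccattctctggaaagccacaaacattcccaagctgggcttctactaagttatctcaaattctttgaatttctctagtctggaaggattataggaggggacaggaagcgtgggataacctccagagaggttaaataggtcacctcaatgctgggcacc
Il12b, chr11:44399813-44400062: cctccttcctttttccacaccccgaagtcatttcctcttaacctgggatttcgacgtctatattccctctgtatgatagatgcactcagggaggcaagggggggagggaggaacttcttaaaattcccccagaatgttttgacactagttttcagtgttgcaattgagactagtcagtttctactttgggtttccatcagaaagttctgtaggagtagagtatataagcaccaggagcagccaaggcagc

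The Ccl22 window held 2 matches to this motif, both on the minus strand, beginning 68 and 37 bases before the GENCODE start, and the other windows held 0. Of 27025 RefSeq promoters, 28.2% hold a match in the first 156 bases of the window and 45.4% in 250 bases, so the motif is common. An interferon-response type motif, GAAA and GAAA with any 2 bases between, was searched on both strands and had 0 matches in the 3 windows, against 3.04% of promoters over 250 bases and 2.06% over 156.

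Ccl22 had 516 UMIs in 60 of 106 KO members and 1407 UMIs in 80 of 94 WT members. Per cell, the median was 226 CPM in KO and 831 CPM in WT, with highest values of 10449 and 8125 CPM. The 2 libraries overlapped widely cell by cell, and more KO cells lay at 0. The summed level was 697 CPM in KO and 1619.7 CPM in WT, a log2 ratio of -1.22 (-1.37 to -1.07). With each cell thinned to 2000 UMIs, 49.5% of 91 KO members and 74.5% of 94 WT members had a Ccl22 UMI. In a T-cell gate, which should lack the gene, 0.636% of KO cells and 1.26% of WT cells had one, at median depths of 4585.5 and 5084 UMIs. Without the limit on MHC class II UMIs the log2 ratio was -0.86.

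Ccl17 rested on few cells. It had 125 UMIs in 26 KO members and 304 UMIs in 32 WT members, and 1 WT cell held 178 of the 304. The summed level was 169 CPM in KO and 349.9 CPM in WT, a log2 ratio of -1.05 (-1.36 to -0.75). Without the cell of each library with the most Ccl17 UMIs it was -0.21, and without the MHC class II limit -0.40, so the size of the Ccl17 ratio depended on 1 cell and on the gate. Each library was also divided into 3 groups by its own class II levels, as described below, and the direction was not the same in all of them. Ccl17 was at 229.8 CPM in KO and 61.3 CPM in WT in the lowest group, and at 186 and 86.2 CPM in the middle. In the highest group it was at 39 and 853 CPM. That WT group held 263 Ccl17 UMIs, among them the 178 of 1 cell. The groups cover different class II levels in the 2 libraries, so comparisons by group are not matched for class II.

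Il12b had 376 UMIs in 36 KO members and 875 UMIs in 50 WT members, of which 1 WT cell held 259. The summed level was 508 CPM in KO and 1007 CPM in WT, a log2 ratio of -0.99 (-1.17 to -0.81). Without the cell with the most Il12b UMIs in each library the log2 ratio was -0.65, and with members limited to cells without a C1q UMI it was -1.46. In the middle of the same 3 groups Il12b was at 436 CPM in KO and 337 CPM in WT, and it was lower in KO in the lowest and the highest group. Neither Il12a, the p35 partner that completes interleukin 12, nor Il23a, the p19 partner that completes interleukin 23, had a UMI in members of either library, where 3 UMIs would be 4.05 CPM in KO and 3.45 CPM in WT. Across cells, Ccl22 and Ccl17 levels had a Spearman rho of 0.33 in KO (106 cells) and 0.48 in WT (94 cells), and Il12b and Ccl22 one of 0.25 and 0.28. Cells of 1 library share its depth and preparation, so these are descriptions.

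Ccl5, which attracts T cells and monocytes, was the most abundant chemokine gene of the members. It was at 7367 CPM in KO and 9048 CPM in WT, a log2 ratio of -0.30 (-0.35 to -0.25). The cells spread widely, with a median of 2614 CPM in KO and 6902 CPM in WT and the same low end of 0 CPM. In the C1q macrophage gate Ccl5 was at 338 CPM in KO and 231 CPM in WT. Of 14 measured chemokine genes in all, 4 were higher and 5 lower in KO. Ccl2, which attracts monocytes, was at 199.8 CPM in KO and 66.8 CPM in WT, and Cxcl16, a membrane-bound ligand of Cxcr6, at 719.7 and 549 CPM. Ccl2 had a UMI in 34% of KO and 38.3% of WT members, and in 29.8% and 36% of cells of the T-cell gate, so its share was near background. Its log2 ratio was 1.58, and 0.41 without the MHC class II limit. Ccl19, the Ccr7 ligand, had 1 UMI in KO and 0 in WT members.

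**Figure D1:**
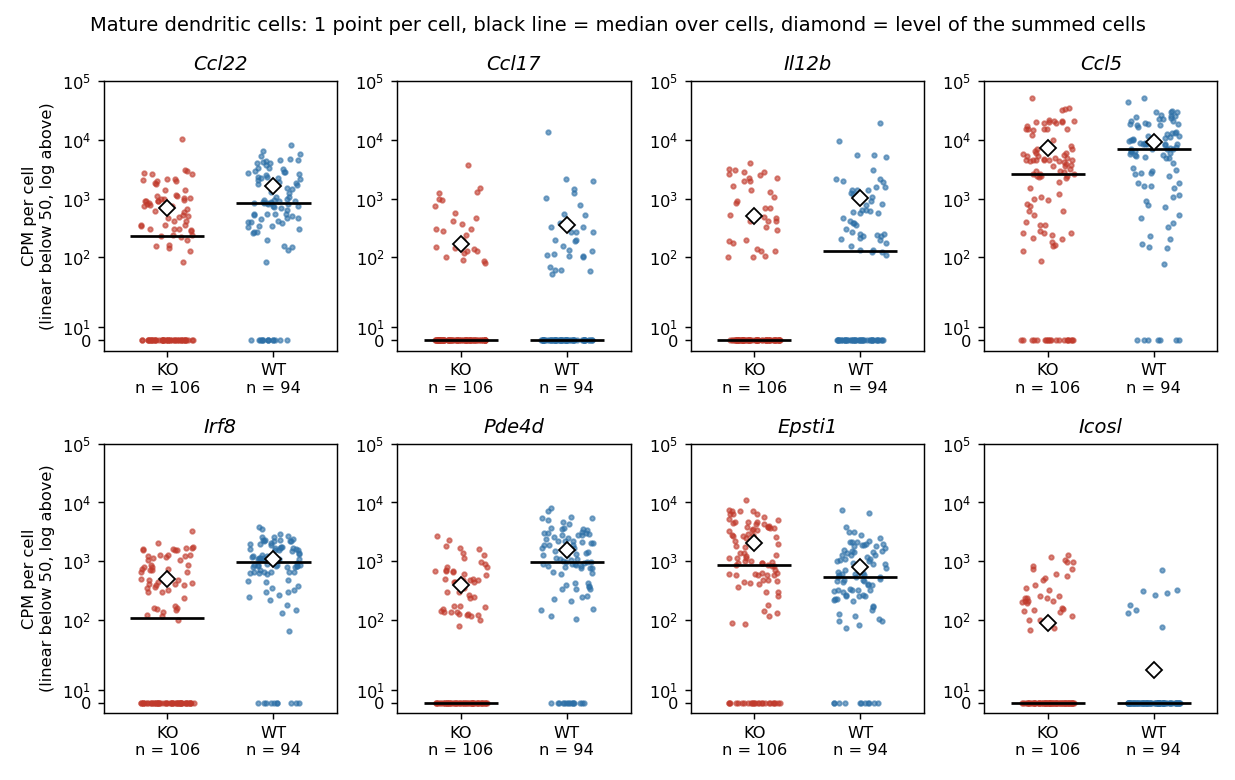
CPM per cell (axis linear below 50 and logarithmic above) of 8 genes in 106 KO members, left, and 94 WT members, right; each point is a cell, the line the median and the diamond the level of the summed cells. For Pde4d the median cell was at 0 CPM in KO and at 979 CPM in WT, while for Epsti1 the diamond stood at 2081 CPM in KO and 800.0 CPM in WT.

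Of 45 measured genes of the mature programme, 10 were higher and 16 lower in KO, and the median log2 ratio was -0.06, as over all candidates. The intervals of Socs2, Mreg and Il4i1 spanned 0, and those of Cacnb3 at -0.24 (-0.43 to -0.05), Relb at -0.18 (-0.34 to -0.01) and the gate gene Ccr7 at -0.26 (-0.33 to -0.19) lay below 0. Beside Ccl22, Ccl17 and Il12b, the widest ratios below 0 were those of Bcl2l14, a relative of the Bcl2 survival proteins, and of Stat4, which relays interleukin 12 and type I interferon signals. Bcl2l14 was at 347 CPM in KO and 952 CPM in WT, a log2 ratio of -1.46 (-1.66 to -1.25), and it had a UMI in 53 KO and 70 WT members. Stat4 was at 748 CPM in KO and 1545 CPM in WT, a log2 ratio of -1.05 (-1.19 to -0.90), with a UMI in 83 KO and 93 WT members. In the T-cell gate Stat4 was at 453 CPM in KO and 627 CPM in WT, and in the C1q macrophage gate at 28.4 and 46.8 CPM. The widest ratios above 0 with an interval above 0 were those of Apol7c, linked in mouse dendritic cells to release of antigen from phagosomes, and of Zmynd15, a zinc finger protein. Apol7c was at 321 CPM in KO and 108 CPM in WT, in 24 cells of each library. Zmynd15 was at 374 CPM in KO and 160.0 CPM in WT, in 46 cells of each library. For both genes as many cells were positive in each library, and the summed levels differed; as the mean of CPM per cell, the Zmynd15 log2 ratio was 0.50, against 1.22 from the sums.

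**Figure D2:**
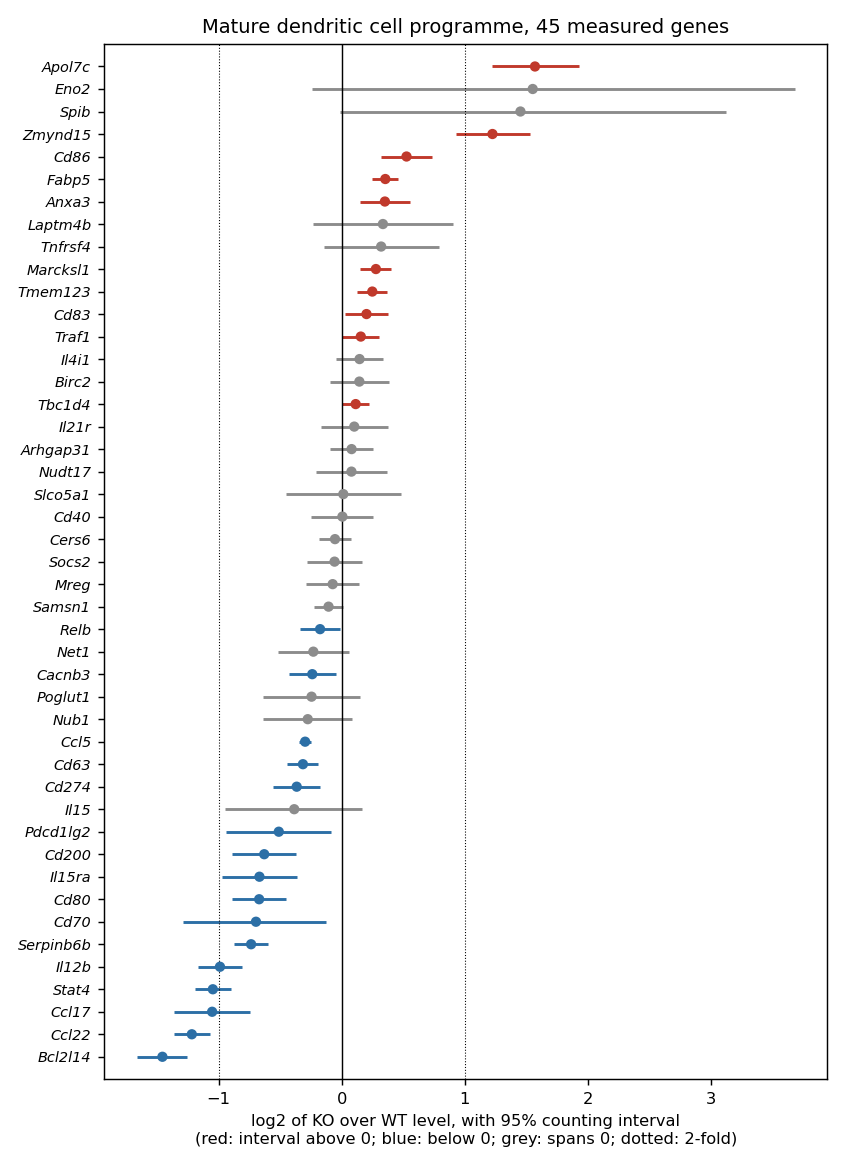
Log2 of the KO over the WT level (x axis) with its 95% counting interval for the 45 measured genes of the mature dendritic programme, ordered by value. Intervals of 10 genes lie above 0 and of 16 below, with Apol7c at 1.57 at the top and Bcl2l14 at -1.46 at the bottom.

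The co-stimulatory ligands that give T cells their second signal did not lie on 1 side. Of 10 measured, 2 were higher and 2 lower in KO. Cd80 was at 354 CPM in KO and 563 CPM in WT, a log2 ratio of -0.67 (-0.89 to -0.45), and its sister ligand Cd86 at 595 and 413 CPM, a log2 ratio of 0.53 (0.32 to 0.73). Cd70 was at 54.0 CPM in KO and 87.5 CPM in WT. Icosl, the ligand of Icos on T cells, was at 87.8 CPM in KO and 25.3 CPM in WT, a log2 ratio of 1.79 (1.08 to 2.56). Icosl had a UMI in 35 KO and 9 WT members, and after thinning in 18.7% and 4.26%, against 1.34% of KO and 1.69% of WT cells of the T-cell gate. Cd40, which receives help from T cells, was at 329 CPM in KO and 328 CPM in WT, a log2 ratio of 0.01 (-0.25 to 0.26). It had a UMI in 54 KO and 65 WT members. The interval covers counting error only, so it sets no limit on a difference between genotypes.

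Of 14 measured regulatory molecules, 2 were higher and 5 lower in KO. Cd274 (PD-L1), a ligand of the inhibitory receptor PD-1, was at 505 CPM in KO and 650.4 CPM in WT, a log2 ratio of -0.37 (-0.56 to -0.17). Pdcd1lg2 (PD-L2), the other ligand of PD-1, was at 103 CPM in KO and 146 CPM in WT, and Cd200, which signals to an inhibitory receptor on myeloid cells, at 254 and 393 CPM. These 3 ligands were lower in KO by a similar amount, with log2 ratios of -0.37, -0.51 and -0.63. In the C1q macrophage gate the log2 ratio of Cd274 was 0.17 (0.07 to 0.26). Ido1, which breaks down tryptophan, had 1 UMI in each library. All 27 KO UMIs of Aldh1a2, which makes retinoic acid, came from 1 cell, while the 12 WT UMIs came from 8.

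Antigen presentation genes of class II stood higher in KO. Of 12 measured genes, 9 were higher and 0 lower, and the median log2 ratio was 0.76, against -0.06 over all candidates. Cd74, the invariant chain, was at 15409 CPM in KO and 9344 CPM in WT, a log2 ratio of 0.72 (0.68 to 0.76). H2-Eb1, a class II beta chain, was at 4885 CPM in KO and 2839.9 CPM in WT, and H2-DMb2, part of the peptide-loading molecule, at 189 and 78.3 CPM. The rule required 5 UMIs of class II genes, and KO members were shallower, so these values are not independent of the choice of cells. Without that limit the list median stayed above 0, and over the alternative settings it lay between 0.69 and 1.11. B cells also carry class II genes, their RNA was more abundant in the KO library as given below, and its part in these values was not tested. In the T-cell gate, which limited H2-Ab1 and H2-Aa, Cd74 was at 317 CPM in KO and 283 CPM in WT. In the C1q macrophage gate it was at 14967 and 13000 CPM, in the type 1 gate at 26216 and 25533 CPM and in the type 2 gate at 30582 and 26797 CPM, so KO was above WT in all 4 gates by a smaller factor than in members. The 16 measured class I genes were split, with 5 higher and 5 lower.

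Ccl5 and the class II genes ran in opposite directions from cell to cell. The Spearman rho between Ccl5 and the summed class II list was -0.71 in KO (106 cells) and -0.48 in WT (94 cells), and -0.70 (91 cells) and -0.53 after thinning each cell to 2000 UMIs. The cells of each library were also ranked by class II level and divided into 3 groups of near-equal size. Per cell, the class II list stood at 2628 to 14872, 14962 to 35426 and 35428 to 78816 CPM in the KO groups. In the WT groups it stood at 3300 to 7366, 7499 to 13580 and 13913 to 50749 CPM. Groups of the same rank were thus not at like class II levels. In KO the 35 cells with the highest class II levels had 1015 CPM of Ccl5 and the 36 with the lowest 13187 CPM. In WT the 31 highest had 2524 CPM and the 32 lowest 10031 CPM, with 15503 CPM in the middle group. Gpr183, an oxysterol receptor that positions dendritic cells, was higher in the class II-rich cells, at 1082 CPM in the highest and 142 CPM in the lowest KO group, and at 425 and 85.1 CPM in WT. Epsti1 was higher in the class II-poor cells, at 390.4 CPM in the highest and 3249 CPM in the lowest KO group, and at 373 and 1117 CPM in WT. In both libraries the class II-rich cells thus had the most Gpr183 and the least Ccl5, while Ccl5 was most abundant in the lowest group of KO and in the middle group of WT. The highest KO group had less Cst3 and Nudt17 than the highest WT group, as given below. Whether the class II-rich cells are all mature dendritic cells was not tested, so these patterns may not describe a state of 1 cell type. Of the other genes given here, only Ccr7 ran in opposite directions in the libraries from the lowest to the highest group. Nudt17 and Cst3 were lower in the highest group of both libraries, by more in KO. Socs2 was higher in the highest group of both, with overlapping intervals. Nudt17 was at 346 CPM in the lowest and 66.9 CPM in the highest KO group, and at 245 and 221 CPM in WT. Ccr7 was at 4378 and 2710 CPM in KO, and at 3579 and 5246 CPM in WT. Cst3 was at 14394 and 5822 CPM in KO, and at 20031 and 17834 CPM in WT. Socs2 was at 414 and 502 CPM in KO, and at 402 and 444 CPM in WT. The highest KO group was shallow, with a median of 3522 UMIs per cell against 7946 in the lowest, whereas in WT the medians were 8851 and 7539.5. With every cell at 2000 UMIs, the KO rho was as given above.

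**Figure D3:**
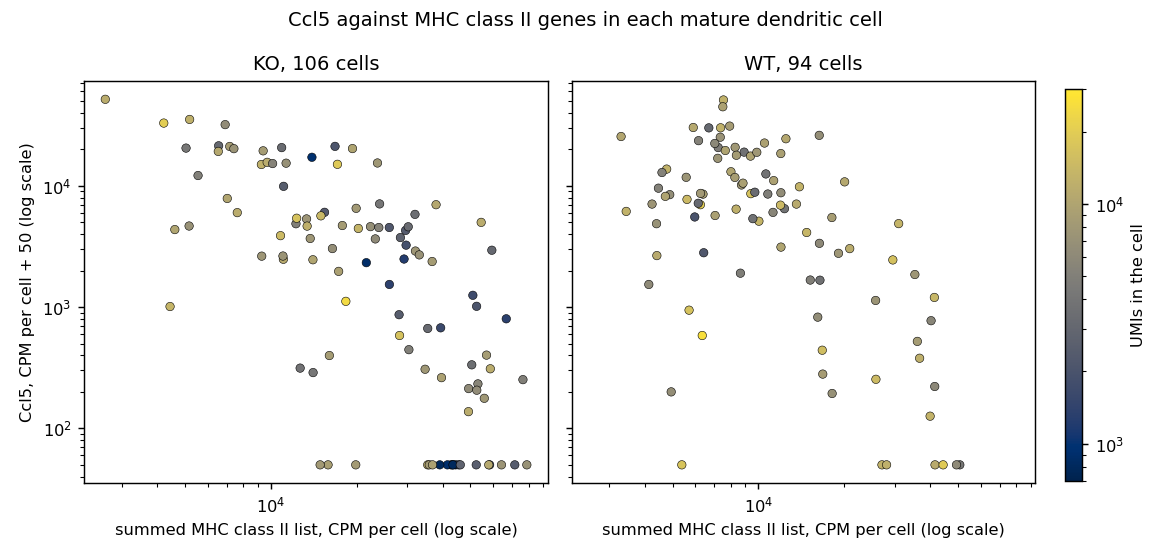
Ccl5 level plus 50 CPM (y axis, log scale) against the summed MHC class II list (x axis, CPM per cell, log scale) for 106 KO members, left, and 94 WT members, right, with the UMIs of the cell as colour. Cells rich in class II hold less Ccl5 in both panels, and the shallow cells of the KO library gather at the class II-rich end.

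Transcription factors of dendritic lineages differed in part. Irf8 was at 504 CPM in KO and 1084 CPM in WT members, a log2 ratio of -1.11 (-1.28 to -0.93). It had a UMI in 50.9% of KO and 89.4% of WT members, and in 39.6% and 71.3% after thinning. In the type 1 gate Irf8 was at 890 CPM in KO and 923 CPM in WT. Batf3, which works with Irf8 in type 1 cells, was at 127 CPM in KO and 184 CPM in WT, and Cst3 had a log2 ratio of -0.85 (-0.89 to -0.81). Irf8 and Cst3 were both lower in KO, and across cells their Spearman rho was 0.57 in KO (106 cells) and 0.39 in WT (94 cells). Zbtb46, a factor of conventional dendritic cells, was at 190.4 CPM in KO and 287 CPM in WT. Tcf4, which drives plasmacytoid dendritic cells, was at 308 CPM in KO and 162 CPM in WT, and 1 KO cell held 85 of the 228 KO UMIs. Of 14 measured type 2 genes, 5 were higher and 2 lower in KO, and of 13 type 1 genes, 2 were higher and 4 lower. The defining type 2 lectins were few in members, with 5 UMIs of Cd209a in KO and 0 in WT.

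The type I interferon response had fewer genes above 0 than below. Of 29 measured genes, 2 were higher and 8 lower in KO, with a median log2 ratio of -0.28, and the list median lay between -0.36 and 0.07 over the alternative settings. Ifitm3, an antiviral membrane protein, was at 269 CPM in KO and 439.7 CPM in WT. Isg15, a ubiquitin-like modifier, was at 185 CPM in KO and 236 CPM in WT, a log2 ratio of -0.35 (-0.67 to -0.03), and at 0.21 in members without a C1q UMI, so its direction depended on that limit. Against these, Epsti1, an interferon-induced gene, was at 2081 CPM in KO and 800.0 CPM in WT, a log2 ratio of 1.38 (1.25 to 1.51). Epsti1 was at 128 CPM in KO and 153 CPM in WT in the type 1 gate, and at 126 and 145 CPM in the type 2 gate. The receptor gene Ifnar1 was at 70.2 CPM in KO and 79.4 CPM in WT, a log2 ratio of -0.18 (-0.73 to 0.36).

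The MAP kinases that Dusp2 acts on switch on immediate-early genes. Of 21 measured genes of that list, 9 were higher and 1 lower in KO, with a median log2 ratio of 0.71. Jun and Fos encode the parts of AP-1. Jun was at 343 CPM in KO and 111 CPM in WT, a log2 ratio of 1.63 (1.29 to 1.99), and Fos at 496 and 228 CPM. Atf3, a stress-induced partner of Jun, was at 149.9 CPM in KO and 32.2 CPM in WT. Junb, the most abundant gene of the list, was at 1165 CPM in KO and 1264 CPM in WT, with an interval that spanned 0. Jun was also higher in KO in the other gates, at 378 CPM against 249 CPM in the type 1 gate, 949 against 543 CPM in the type 2 gate, 388 against 297 CPM in the C1q macrophage gate and 287 against 218 CPM in the T-cell gate. The whole list summed to 5379 CPM in KO and 4453 CPM in WT members, and was above WT in KO in the type 1, type 2 and T-cell gates. In the C1q macrophage gate it summed to 6426 CPM in KO and 6498 CPM in WT. With the gate applied to cells thinned to 2000 UMIs, the Jun log2 ratio in members was 0.70. The cause of these differences was not tested.

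Heat-shock genes were also higher in KO more often than lower. Of 13 measured, 7 were higher and 2 lower in KO. Hspa1b was at 343 CPM in KO and 32.2 CPM in WT and Hspa1a at 275 and 36.8 CPM, both inducible chaperones of the Hsp70 family whose near-identical copies can share reads. Each had a UMI in 18 KO and 8 WT members, and in KO 12 cells had both. In the T-cell gate Hspa1a was at 202 CPM in KO and 74.4 CPM in WT, and in the C1q macrophage gate at 83.5 and 147 CPM, so the direction was not the same in all gates.

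Of 8 measured dual-specificity phosphatases other than Dusp2, 2 were higher and 1 lower in KO. Dusp1, an inducible phosphatase of p38 and JNK, was at 523 CPM in KO and 332 CPM in WT, Dusp5, which acts on ERK, at 524 and 571 CPM, and Dusp16, which acts on JNK, at 104 and 195 CPM. Of 13 measured NFAT-linked genes, 2 were higher and 3 lower. Nfatc1 was at 20.3 CPM in KO and 18.4 CPM in WT, a log2 ratio of 0.14 (-0.98 to 1.25), and Nfat5, which responds to osmotic stress, at 321 and 483 CPM.

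Of 22 measured NF-kappaB pathway genes, 5 were higher and 7 lower in KO. Nfkb1, the p105 precursor, was at 811 CPM in KO and 1372 CPM in WT, a log2 ratio of -0.76 (-0.90 to -0.62), and Map3k14, the kinase of the alternative pathway, at 362 and 594 CPM. Relb, the factor of that pathway in mature dendritic cells, was at 708 CPM in KO and 799 CPM in WT, a log2 ratio of -0.18 (-0.34 to -0.01). Of 21 measured glycolysis and hypoxia genes, 0 were higher and 8 lower, with Gapdh at 1402 CPM in KO and 2140.0 CPM in WT. Of 35 genes of oxidative phosphorylation, 8 were higher and 1 lower, with a median log2 ratio of 0.13. Of 25 migration and cytoskeleton genes, 5 were higher and 8 lower. Actg1, an actin, was at 7083 CPM in KO and 11629 CPM in WT, while Vim, the intermediate filament protein, was at 2239 and 1231 CPM, and the gate gene Fscn1 at 2862 and 2969.9 CPM.

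**Figure D4:**
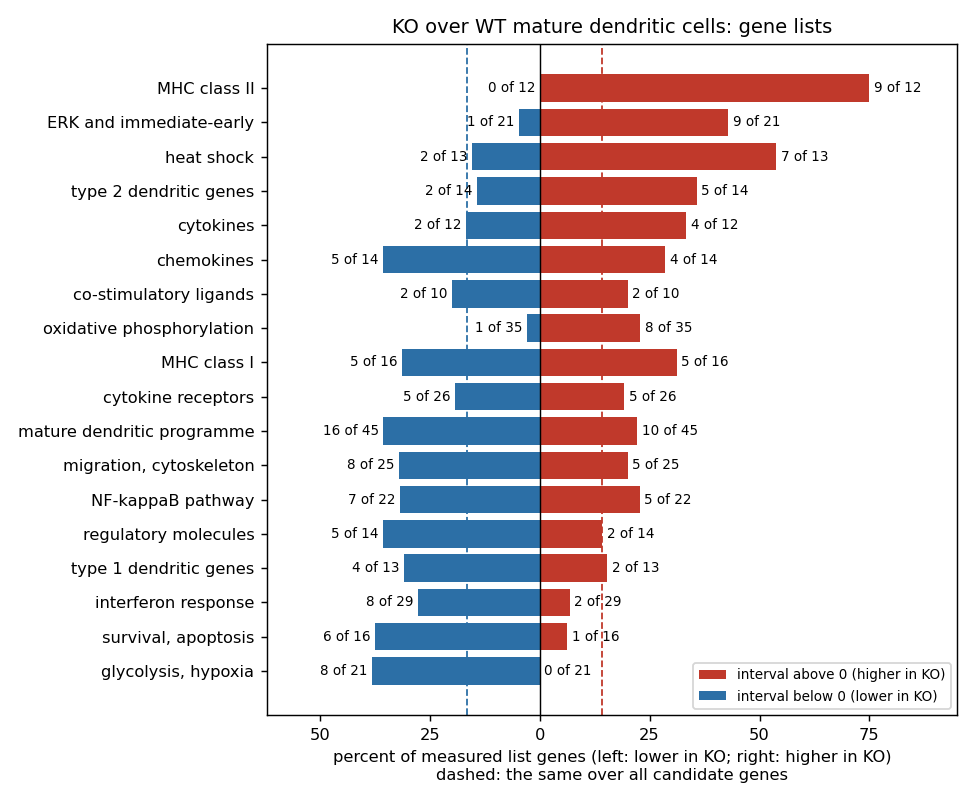
Percent of measured genes of 18 lists whose counting interval of the KO over WT ratio lay above 0 (right, red) or below 0 (left, blue), with the numbers beside the bars and the same over 3890 candidates as dashed lines (14.2% and 16.6%). MHC class II genes had 9 of 12 to the right and 0 to the left, and glycolysis and hypoxia genes 0 of 21 to the right and 8 to the left.

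The genes with the widest ratios were then named by a rule of size. On the side higher in KO they were Dnase1l3, Asprv1, Gpr15lg, Ehf, Prkcb, Selenom, Hspa1b, Slpi, Hspa1a, Dpp10, Clu and Ramp1, and most came from a minority of the KO cells. Dnase1l3, a secreted nuclease that dendritic cells and macrophages make, had 133 UMIs in 26 KO members and 5 UMIs in 5 WT members, 179.6 and 5.76 CPM. It had a UMI in 16.5% of KO and 3.19% of WT members after thinning, and was at 61.4 CPM in KO and 20.7 CPM in WT cells of the type 1 gate. Asprv1, a skin protease, had 59 UMIs in 15 KO members and 1 UMI in WT. Ehf, an epithelial ETS factor, had 74 UMIs in 16 KO members and 4 UMIs in 1 WT member. Prkcb, a protein kinase C that B cells also carry, had 63 UMIs in 24 KO members and 3 UMIs in 1 WT member, and its log2 ratio was 2.99 without the MHC class II limit, against 4.62 with it. Slpi, a secreted protease inhibitor, had 57 UMIs in KO and 4 UMIs in WT, and its log2 ratio was 0.99 without that limit, against 4.06 with it.

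On the side lower in KO the rule named Dusp2, Igfbp4, Pf4, Mylk, Pde4d, Syn3, Bcl2l14, Setbp1, Itpr1, Slc27a3, Npr1 and Pkib. Pde4d, a phosphodiesterase that breaks down cyclic AMP, was at 396 CPM in KO and 1559 CPM in WT, a log2 ratio of -1.98 (-2.17 to -1.79). It had a UMI in 46.2% of KO and 84.0% of WT members, and in 37.4% and 69.1% after thinning. Pkib, an inhibitor of the cyclic AMP-dependent kinase, was at 401 CPM in KO and 1071 CPM in WT members, and at 846 and 612 CPM in the type 1 gate. Itpr1, the calcium release channel, was at 48.6 CPM in KO and 166 CPM in WT. Pde4d, Pkib and Itpr1 were lower over many cells, whereas for some others of the group 1 WT cell held a large part of the UMIs. Igfbp4 had a UMI in 22 WT members, Pf4 in 24 and Mylk in 8. Igfbp4, which binds insulin-like growth factors, had 10 UMIs in KO and 148 UMIs in WT, of which 1 cell held 50. Mylk, the myosin light chain kinase, had 4 UMIs in KO and 56 UMIs in WT, 27 of them in 1 cell. Pf4, a chemokine of platelets and macrophages, had 7 UMIs in KO and 91 UMIs in WT, 31 of them in 1 cell. With 1 UMI of Ccr7 enough for a member, the log2 ratio was -1.93 for Igfbp4 and -2.27 for Pf4, against -3.66 and -3.47.

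Markers of other cells were few in members but were not alike in the libraries. The 11 B-cell markers summed to 651 CPM in KO and 2.30 CPM in WT members, with Cd79a and Ms4a1 at 0 by the rule. Igkc, an immunoglobulin light chain, made up 427 of the 482 KO UMIs, in 97.2% of KO members. Igkc also had a UMI in 93.1% of KO cells of the T-cell gate, and in WT it had 0 UMIs in members. The 11 plasma-cell markers summed to 356 CPM in KO and 40.3 CPM in WT, and the 14 T-cell markers to 52.7 and 19.6 CPM, with Cd8a at 25 of 39 UMIs in KO and 4 of 17 UMIs in WT. Cd8a thus made up most of the KO T-cell sum, and whether it came from T cells was not tested. The 16 macrophage markers summed to 1102 CPM in KO and 728 CPM in WT, with Lyz2 at 883 and 298 CPM, although 1 of 14 measured was higher and 5 lower. The 9 monocyte markers summed to 323 CPM in KO and 279.7 CPM in WT, and the 8 plasmacytoid dendritic markers to 531 and 359 CPM. C1qa, C1qb and C1qc were limited by the rule, and 82 of 106 KO and 59 of 94 WT members had 0 UMIs of them. The 8 tumour markers summed to 1492 CPM in KO and 999 CPM in WT, mostly S100a6, and the 9 NK markers to 63.5 and 95.5 CPM, mostly Klrk1. The 6 mast-cell and basophil markers summed to 0 CPM in KO and 1.15 CPM in WT, the 5 endothelial markers to 5.40 and 6.91 CPM, the 8 neutrophil markers to 10.8 and 9.21 CPM, and the 9 fibroblast markers to 29.7 and 20.7 CPM. The part of such RNA in the differences between the libraries was not tested. Of all deposited barcodes, 31 were shared by the libraries.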

How the data were processed

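Per the labels' protocols, the 2 libraries are 10x 3' libraries of kit version 3.1. The authors deposited raw UMI counts of 33696 genes per cell barcode, which are whole-number counts. Cell Ranger 6.0.1, Seurat 4.0.3 and 4.0.4 and the build mm10 stand in the submitters' processing notes, and Cell Ranger 8.0.1 in the header of each matrix. No source used here gives the annotation or whether counting used strand, so overlapping and antisense genes cannot be told apart.

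Members were chosen with a rule on UMIs, and the members and gene lists were chosen with earlier results of these data known. No doublet caller was run. The rule leaves out cells with a UMI of Cd3d, Cd3e, Cd79a, Ms4a1, Hmga2 or Rhox5 or with more than 2 C1q UMIs. It sets no limit on markers of other cells, so doublets with those can remain. No member exceeded the 95th percentile of UMIs of its library. UMIs of the members were summed per library and scaled to CPM. Levels have exact Poisson intervals, shares Clopper-Pearson intervals, and log2 ratios of levels exact conditional binomial intervals, at 95%; log2 ratios of shares have a normal approximation. They were tested on simulated data and cover counting error only. Candidates had a mean of 30 CPM or more and 30 or more UMIs in KO or in WT. A list gene was measured with at least 10 UMIs over both libraries. Named were, per direction, the 12 candidates whose interval bound nearest 0 lay farthest from 0, leaving out genes of the mitochondrion, ribosomal proteins, haemoglobins, antigen receptors and predicted genes; up to 4 genes of each list by level and up to 4 by interval bound; 28 fixed genes; and 10 per direction against each dendritic gate. The type 1 and type 2 gates kept the limits on other lineages; the macrophage gate allowed no Ccr7, Cd3d or Cd3e UMI and needed 10 C1q UMIs and the T-cell gate 2 UMIs of Cd3d and Cd3e. Nudt17, Il12a, Il23a and Xcr1 were named after their values were seen. Scaling factors for the alternatives came from edgeR 4.0.16 (TMM) and DESeq2 1.42.0, used for no test. Python 3.11.15, numpy 2.4.6, scipy 1.17.1 and pandas 2.3.3 were used. Promoters came from RefSeq, positions from GENCODE M21, both GRCm38, and the 3 promoter genes asked for were found. Some genes that the rule or the lists name are left out of the text.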

Additional observations from a re-analysis of the deposited data

Results flagged for a closer look

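In 12 of the named genes the log2 ratio of KO over WT in mature dendritic cells had the opposite sign to that in the C1q macrophage gate, with both intervals on their own side of 0. With 1 library per genotype the difference between the cell types was not tested. Higher in KO members and lower in KO macrophages were Aldh1a2 (1.40 in members), Cd83 (0.20), Cd86 (0.53), Hspa1a (2.90), Hspa1b (3.41) and Prkcb (4.62). Lower in KO members and higher in KO macrophages were Ccl5 (-0.30), Cd200 (-0.63), Cd274 (-0.37), Isg15 (-0.35), Pkib (-1.42) and Relb (-0.18). In the macrophage gate the ratios were -0.82 for Hspa1a, -1.21 for Hspa1b, -0.69 for Prkcb, 0.55 for Ccl5 and 0.50 for Pkib. All 27 KO UMIs of Aldh1a2 in members came from 1 cell, and Isg15 lay at 0.21 in members without a C1q UMI.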

How the results depend on the processing

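No paired analysis was possible because the labels give 1 library per genotype and no replicate numbers. Over 20 alternatives, 17 of them listed at the outset and 3 chosen after seeing the data, the share of members per kept barcode moved beyond its interval only with another denominator: the log2 ratio of KO over WT was 0.54 per barcode of the 3 dendritic gates and 0.68 per kept barcode without Cd79a or Ms4a1, against -0.20. It was 0.10 with no C1q UMI allowed and 0.09 with the gate applied to cells thinned to 2000 UMIs, and -0.42 without members under 2000 UMIs. The counts of genes at least 2-fold apart moved by over 1.5 times only without a filter on low counts, to 3048 higher and 2273 lower genes from 138 and 125. They lay between 111 and 183 and between 105 and 184 under the others. Without mitochondrial, ribosomal, haemoglobin and Ig genes in the total the split was 160 higher and 105 lower, and with DESeq2 size factors 120 and 151. The median of the Ifitm and Ly6 list, 0.59, was -0.064 with at least 2 Fscn1 UMIs and -0.11 with the gate on thinned cells, and Isg15 was 0.21 with no C1q UMI; the cause was not tested. Of 1112 gene ratios 1020 stayed within their interval. List medians have no interval of their own. Of 510 list medians, 504 stayed within the median half-width of the single-gene intervals of their list. That width was 0.22 for the mature programme and 1.68 for the type 1 genes, so for some lists it is a wide limit. Depth limits the rare genes: 3 UMIs are 4.05 CPM in KO and 3.45 CPM in WT.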

Other observations

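Survival genes in the members were lower in KO more often than higher, 6 against 1 of 16 measured. Bcl2a1b, a relative of Bcl2 in a family of near-identical copies that can share reads, was at 1503 CPM in KO and 2207 CPM in WT, and Bcl2l11, which promotes cell death, at 48.6 and 95.5 CPM. Of 19 measured uptake and lysosome genes 5 were higher and 3 lower. Clec7a, a receptor for fungal glucans, was at 444 CPM in KO and 715 CPM in WT, and Lamp1, a lysosomal membrane protein, at 717 and 529.5 CPM.

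Cytokine receptor genes were split, with 5 higher and 5 lower of 26 measured. Flt3, the receptor for the growth factor of dendritic cells, was at 381 CPM in KO and 276 CPM in WT, and Il15ra, which presents interleukin 15, at 188 and 298 CPM. Among cytokines, Il1b was at 1419 CPM in KO and 1944 CPM in WT and Tnf at 77.0 and 35.7 CPM.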
